A study of Mus musculus with 6 samples.

Results

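The genes described here encode the mitochondrial machinery that burns long-chain fatty acids, measured by RNA sequencing in regulatory T cells (Tregs) with and without the sterol regulator SREBP2. They are 10 genes of the 24421 in the deposited table, taken by symbol: the carnitine shuttle (Cpt1a, Slc25a20, Cpt2), the acyl-CoA dehydrogenases (Acadvl, Acadl, Acadm), the trifunctional protein and thiolase (Hadha, Hadhb, Acaa2) and the electron transfer enzyme Etfdh. All 10 were found and all 10 passed the filter on low counts. The cells were mouse Tregs of spleen and lymph nodes. The Srebp2cKO group holds 3 libraries (replicates 6, 7 and 8) of genotype Srebp2FL/FL-Foxp3YFPCRE+/-, and the Srebp2WT group 3 libraries (replicates 1, 3 and 5) of genotype Srebp2WT/WT-Foxp3YFPCRE+/+. Both groups carry a Cre recombinase with a yellow fluorescent protein at Foxp3, so deletion is confined by design to cells that express Foxp3, and the dose of Cre differs along with the floxed alleles. Foxp3 is X-linked, so a +/- animal can hold Tregs in which Cre is silent. The labels used here state neither age nor whether each library is 1 animal, so p-values measure the spread between libraries, which could be partly technical.

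Long-chain fatty acids enter mitochondria as carnitine esters. CPT1 makes the ester on the outer membrane, the carrier SLC25A20 exchanges it across the inner membrane, and CPT2 returns the fatty acid to coenzyme A. Each turn of beta-oxidation then uses a dehydrogenase matched to chain length, which passes electrons through the electron transfer flavoprotein to ubiquinone. For long chains, the hydratase, second dehydrogenase and thiolase activities that follow are those of the trifunctional protein. Malonyl-CoA, the product of acetyl-CoA carboxylase, inhibits CPT1, so fatty acid synthesis and oxidation oppose each other. Tregs have been described as relying on lipid oxidation more than conventional effector T cells do, largely from work on cultured cells and inhibitors.

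Hadha and Hadhb, the subunits of the trifunctional protein, lie head to head on chromosome 5, and their RefSeq start sites (GRCm38.p6) are 273 bases apart. Their promoter windows of 250 bases before to 50 after each start share 228 bases. The shared sequence is shown because the ratio of these genes is examined later. The Hadhb window, chr5:30155003-30155302 on the plus strand, has the bases that the Hadha window also holds in capitals.
Hadhb: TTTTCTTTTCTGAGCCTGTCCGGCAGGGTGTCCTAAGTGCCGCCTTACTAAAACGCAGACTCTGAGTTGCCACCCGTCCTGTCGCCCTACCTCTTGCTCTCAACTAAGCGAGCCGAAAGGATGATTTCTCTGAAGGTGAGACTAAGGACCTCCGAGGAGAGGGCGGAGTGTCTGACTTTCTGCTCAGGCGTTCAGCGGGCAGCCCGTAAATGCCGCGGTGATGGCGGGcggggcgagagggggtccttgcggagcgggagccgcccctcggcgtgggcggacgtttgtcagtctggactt
The promoter window of Etfdh, the gene with the largest log2 fold change here, is shown because it was the 1 window of the 9 available that held any motif searched. It is chr3:79628718-79629017 on the minus strand, printed 5′ to 3′ with the match in capitals.
Etfdh: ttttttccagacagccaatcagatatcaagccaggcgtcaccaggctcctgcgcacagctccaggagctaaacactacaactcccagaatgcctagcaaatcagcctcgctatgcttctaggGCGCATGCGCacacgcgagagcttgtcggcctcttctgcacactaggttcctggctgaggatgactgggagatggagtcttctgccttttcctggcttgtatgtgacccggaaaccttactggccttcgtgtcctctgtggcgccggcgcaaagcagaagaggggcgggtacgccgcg
The motifs were the sterol regulatory element TCACNCCAC, the E-box CACGTG, the direct repeat of PPAR receptors (AGGTCA, any 1 base, AGGTCA) and the palindromic NRF1 site in capitals above, each searched on both strands. Of 9 promoter windows from RefSeq (Acaa2 had no entry), 0 held the first 3 motifs and Etfdh alone held the NRF1 site. Of 32851 windows of all genes, 1.24% held the sterol regulatory element, 7.15% the E-box, 0.0396% the direct repeat and 0.971% the NRF1 site. These are matches of letters in short windows, and say nothing of binding.

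Libraries held 13918321 to 17249898 counts assigned to genes. Srebf2, the gene for SREBP2, stood at 13.7, 12.7 and 10.7 CPM in Srebp2cKO against 191, 192 and 172 CPM in Srebp2WT (CPM are TMM-scaled counts relative to library size). Its log2 fold change was -3.91 (SE 0.11, edgeR adjusted p = 1.5e-08). All 6 Treg markers (Foxp3, Cd3e, Cd4, Il2ra, Ctla4 and Ikzf2) were tested in the fit, and their summed level was 4037 to 4192 CPM in Srebp2cKO and 4115 to 4335 CPM in Srebp2WT. Within that sum, Il2ra passed as higher (log2 fold change 0.41, edgeR adjusted p = 0.0101). Ctla4 (0.23, edgeR adjusted p = 0.0897), Ikzf2 (-0.26, 0.0645) and Cd3e (-0.09, 0.434) were separated between the genotypes and did not pass. Such a separation was present for 31.5% of all tested genes. Summed B cell markers were 25.8 to 34.5 CPM in Srebp2cKO and 56.4 to 79.4 CPM in Srebp2WT, with Ms4a1 at no more than 3 counts in any library. Summed myeloid markers were 37.1 to 43.0 CPM in Srebp2cKO and 53.9 to 88.2 CPM in Srebp2WT. Most of that sum was Cybb (30.9, 32.0 and 36.5 CPM in Srebp2cKO and 81.4, 51.9 and 48.7 CPM in Srebp2WT, edgeR adjusted p = 0.0216), and the other myeloid markers tested, Itgam and Cd68, had log2 fold changes of 1.07 and 0.35 (adjusted p = 0.108 and 0.270). Summed stromal and endothelial markers were 216 to 230.2 CPM in Srebp2cKO and 168 to 180.5 CPM in Srebp2WT, nearly all of it Pecam1 (log2 fold change 0.39, edgeR adjusted p = 0.0139). The rest of that list was near 0. Cdh5, Col3a1 and Pdgfrb had no more than 3 counts in any library, and Col1a1 had a log2 fold change of -0.75 (edgeR adjusted p = 0.234). Summed CD8 T and natural killer markers were 9.53 to 10.9 CPM in Srebp2cKO and 8.71 to 10.3 CPM in Srebp2WT. In that list Klrb1c passed as lower (log2 fold change -1.36, edgeR adjusted p = 0.0399) on 9 to 42 counts a library. Cd8b1, higher in every Srebp2cKO library, did not pass (0.31, edgeR adjusted p = 0.199). Marker sums are relative to total counts, and their part in the results was not tested. In bulk RNA, fewer cells of a type and less RNA per cell cannot be told apart.

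No fatty acid oxidation gene passed the test between Srebp2cKO and Srebp2WT Tregs. With edgeR at a false discovery rate of 0.05, 0 of the 10 genes were higher and 0 lower, where 6.61% of the 11932 tested genes passed (283 genes or 2.37% higher, 506 or 4.24% lower). Scaled by total counts alone, 184 genes were higher and 570 lower, and again 0 of the 10 passed. At a threshold of 0.1, 15.9% of all tested genes passed and still 0 of the 10. DESeq2, which called 12.2% of its genes, and limma-voom, which called 6.55%, also called 0 of the 10. At an unadjusted p under 0.05 there was 1 gene, Etfdh, against 29.1% of all tested genes. The libraries of the genotypes did not overlap for 3 of the 10 genes (Slc25a20, Acadm and Etfdh, all higher in Srebp2cKO), against 31.5% of all tested genes. Log2 fold changes ran from -0.16 (Cpt2) to 0.21 (Etfdh), with 6 above and 4 below 0 and a median of 0.05, beside a median of 0.00 (-1.5e-04) over all tested genes. The summed level of the 10 genes was 544, 529 and 529 CPM in Srebp2cKO and 556, 526 and 509 CPM in Srebp2WT, with the libraries of the genotypes intermixed.

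**Figure D1:**
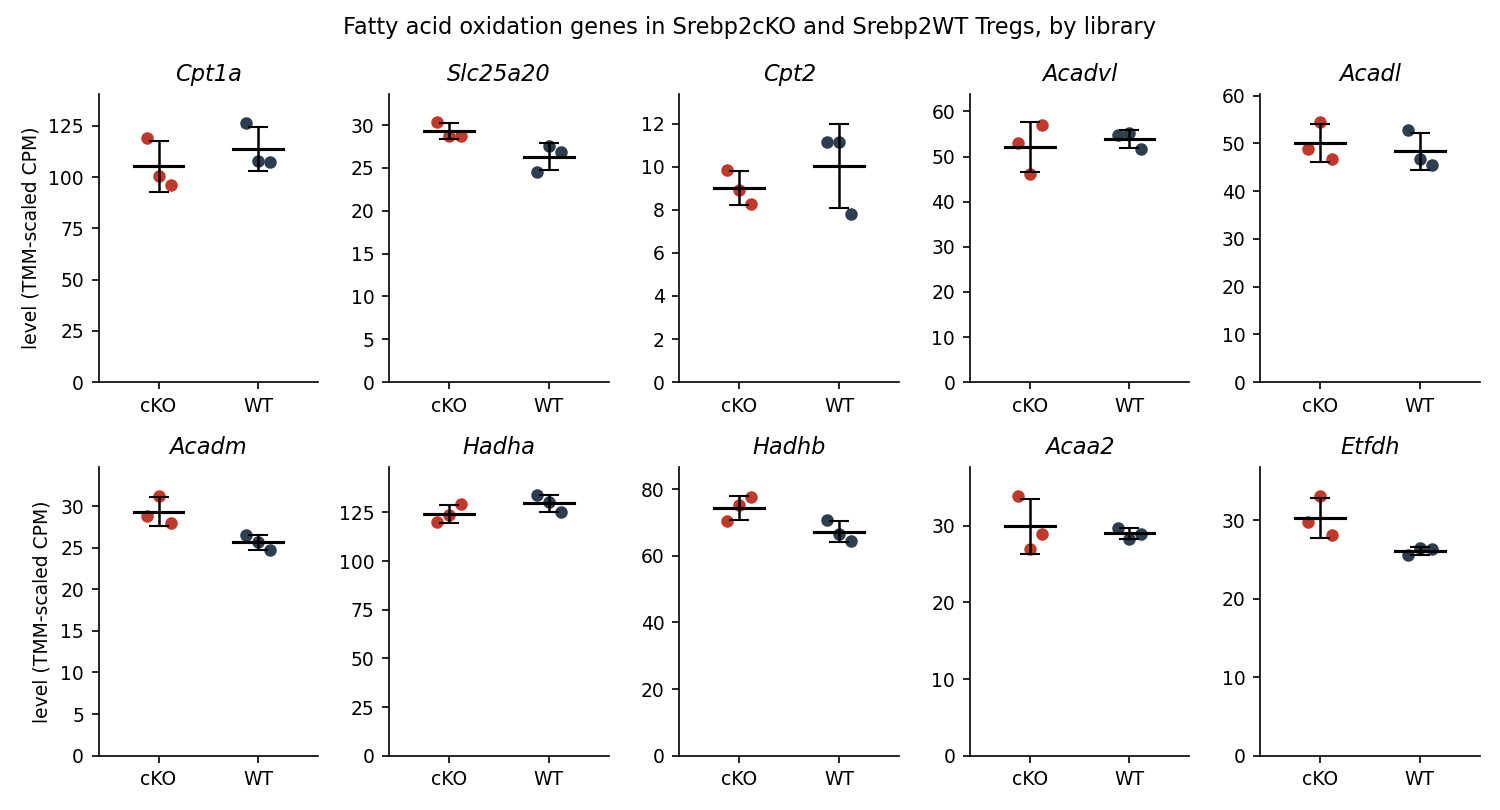
Level of each of the 10 genes (TMM-scaled CPM, linear axes from 0), with Srebp2cKO libraries in red on the left and Srebp2WT libraries in dark blue on the right; bars are the mean and SD of 3 libraries. The libraries of the genotypes are separated for Slc25a20, Acadm and Etfdh and overlap for the other 7 genes.

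The gate of the pathway, Cpt1a, lies on chromosome 19 from 3322334 to 3385733 (GRCm38, GENCODE M21). It encodes the CPT1 form that predominates outside muscle, and stood at 119, 100.3 and 96.1 CPM in Srebp2cKO against 126, 108 and 107 CPM in Srebp2WT. The highest Srebp2cKO library lay among the Srebp2WT libraries, and the mean was 105 ± 12.3 CPM in Srebp2cKO and 114 ± 10.7 CPM in Srebp2WT (mean ± SD of n = 3 libraries per genotype, as for all such values). Its log2 fold change of -0.12 had an SE of 0.10 (95% interval -0.34 to 0.11, edgeR adjusted p = 0.471). That interval spans ratios of 0.790 to 1.08. The log2 fold change was -0.21 without Srebp2cKO replicate 6 and -0.03 without Srebp2WT replicate 1.

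The muscle form Cpt1b and the brain form Cpt1c were far below Cpt1a per kilobase of transcript. Cpt1a averaged 24.4 CPM per kb in Srebp2cKO and 26.4 in Srebp2WT, Cpt1b 1.01 in Srebp2cKO and 1.36 in Srebp2WT, and Cpt1c 0.202 in Srebp2cKO and 0.437 in Srebp2WT. Counts of Cpt1c were 8, 9 and 9 in Srebp2cKO and 26, 20 and 11 in Srebp2WT, so that its log2 fold change of -1.11 rests on few counts and did not pass (edgeR adjusted p = 0.105). Cpt1b had a log2 fold change of -0.42 (edgeR adjusted p = 0.214). Both had their Srebp2cKO libraries below all Srebp2WT libraries, a separation in either direction being present for 31.5% of all tested genes.

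The later steps of the shuttle did not pass either. Slc25a20, the carnitine-acylcarnitine carrier, was at 30.3, 28.8 and 28.7 CPM in Srebp2cKO and 24.6, 27.5 and 26.9 CPM in Srebp2WT. Every Srebp2cKO library was above every Srebp2WT library, by a small margin (log2 fold change 0.15, SE 0.09, 95% interval -0.05 to 0.36, edgeR adjusted p = 0.288). Cpt2, which rebuilds acyl-CoA in the matrix, was the lowest of the 10 genes in CPM and per kilobase. It stood at 9.84, 8.90 and 8.28 CPM in Srebp2cKO and 11.2, 11.1 and 7.78 CPM in Srebp2WT, with the lowest library of all in Srebp2WT. It rests on 115 to 178 counts a library and had the widest interval, -0.54 to 0.22 on the log2 scale, which reaches a ratio of 0.689 (log2 fold change -0.16, edgeR adjusted p = 0.560). The log2 fold change was -0.31 without Srebp2WT replicate 5 and -0.07 without Srebp2WT replicate 1.

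Among the acyl-CoA dehydrogenases, which open each turn of the cycle, the values did not share a direction. Acadvl, for very long chains, was at 53.0, 46.1 and 57.0 CPM in Srebp2cKO and 54.8, 55.2 and 51.7 CPM in Srebp2WT. The genotypes overlapped (log2 fold change -0.05, 95% interval -0.26 to 0.16, edgeR adjusted p = 0.752). The 3′ end of Acadvl overlaps Dvl2 on the opposite strand, and Dvl2 transcripts hold 24.0% of its 50-base words in reverse. No source used here gives the strand setting of the counting, so the count of Acadvl is uncertain. Dvl2 itself stood at 27.5 ± 1.86 CPM in Srebp2cKO and 32.9 ± 1.47 CPM in Srebp2WT (edgeR adjusted p = 0.106).

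Acadl, for long chains, was at 48.9, 54.5 and 46.8 CPM in Srebp2cKO and 52.8, 46.7 and 45.5 CPM in Srebp2WT. Its genotypes overlapped (log2 fold change 0.05, 95% interval -0.16 to 0.26, edgeR adjusted p = 0.751). Acadm, for medium chains, was at 28.9, 31.2 and 27.9 CPM in Srebp2cKO and 26.6, 25.6 and 24.8 CPM in Srebp2WT. All Srebp2cKO libraries were above all Srebp2WT libraries, and the gene did not pass (log2 fold change 0.19, SE 0.09, 95% interval -0.01 to 0.40, edgeR adjusted p = 0.195).

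Hadha, the subunit with hydratase and long-chain hydroxyacyl-CoA dehydrogenase activities, lies on chromosome 5 from 30118304 to 30155162 in GENCODE M21. The RefSeq start used for its promoter window, 30154980, lies inside that span. Hadha was at 120.2, 124 and 129 CPM in Srebp2cKO and 134, 130.2 and 125 CPM in Srebp2WT. Its interval was the narrowest of the 10, -0.22 to 0.10 (log2 fold change -0.06, edgeR adjusted p = 0.597). Hadhb, the thiolase subunit, lies beside it from 30155248 to 30184593, and was at 70.4, 75.2 and 77.7 CPM in Srebp2cKO and 70.8, 66.5 and 64.5 CPM in Srebp2WT. The lowest Srebp2cKO library and the highest Srebp2WT library nearly coincided (log2 fold change 0.15, 95% interval -0.03 to 0.32, edgeR adjusted p = 0.241). Transcripts of the pseudogene Gm13910 hold 61.5% of the 50-base words of Hadhb and those of Gm9108 15.4%. No source used here tells how the authors' counting treated such reads, so the level of Hadhb is uncertain.

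Acaa2, the medium-chain thiolase of the matrix, was at 33.9, 27.0 and 28.9 CPM in Srebp2cKO and 29.8, 28.3 and 28.9 CPM in Srebp2WT. The Srebp2cKO libraries lay on both sides of the Srebp2WT libraries (log2 fold change 0.04, 95% interval -0.19 to 0.27, edgeR adjusted p = 0.809). Etfdh, on chromosome 3 from 79603788 to 79629500, encodes the oxidoreductase that hands electrons from the flavoprotein to ubiquinone. It was at 29.8, 33.1 and 28.1 CPM in Srebp2cKO and 25.6, 26.5 and 26.4 CPM in Srebp2WT. Every Srebp2cKO library was above every Srebp2WT library, and 43.8% of all tested genes had a larger absolute log2 fold change. Its log2 fold change of 0.21 had an SE of 0.10 (95% interval 0.0014 to 0.43, edgeR adjusted p = 0.169), the 1 interval of the 10 that did not include 0. Without Srebp2cKO replicate 7 it was 0.14. Etfa and Etfb, the subunits of the flavoprotein that supplies it, had log2 fold changes of 0.15 and -0.15 (edgeR adjusted p = 0.346 and 0.412), and both were chosen after their values were seen.

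**Figure D2:**
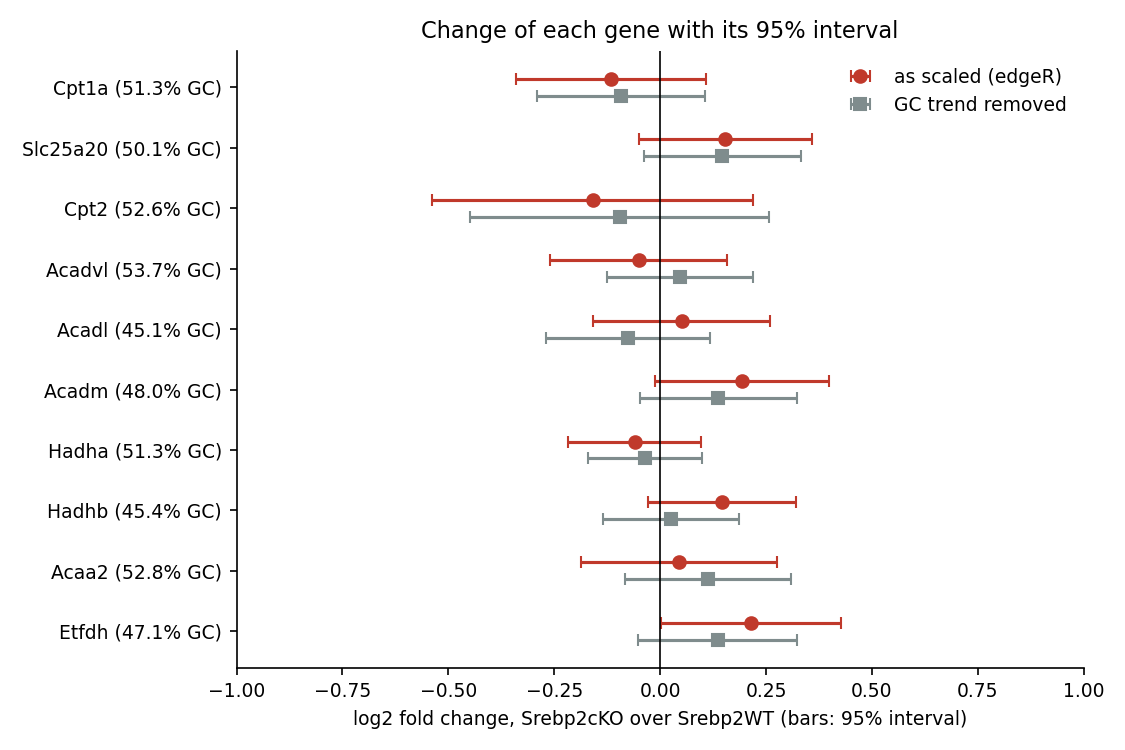
Log2 fold change of Srebp2cKO over Srebp2WT (points) with the 95% interval (bars) for each gene, as scaled (red) and after a trend with transcript GC was removed from each library (grey); the share of G and C in each transcript is beside its name. All intervals lie between -0.54 and 0.43.

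The 95% intervals of the 10 genes together ran from -0.54 to 0.43 on the log2 scale, or ratios of 0.689 to 1.34. Larger changes lie outside every interval, but these are separate intervals with no joint 95% coverage. They do not include the uncertainty of counting named above for Acadvl and Hadhb. Libraries differed in how levels followed transcript GC. Slopes, in log2 units per 10 points of GC, were 0.01, -0.25 and -0.12 in Srebp2cKO and 0.15, 0.18 and 0.02 in Srebp2WT. Every Srebp2cKO slope was below every Srebp2WT slope, so this GC trend cannot be told apart from genotype. Its removal may also take away differences between the genotypes. Removing this trend kept the count of genes called at 0 and left 6 log2 fold changes above 0. Acadl moved to -0.08 and Acadvl to 0.05, so the sign of each depends on this correction. Etfdh and Hadhb, with 47.1% and 45.4% GC, moved to 0.14 and 0.03.

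Per kilobase of the longest annotated protein-coding transcript, the trifunctional protein genes were the highest and Cpt2 the lowest. Which transcripts the cells used was not tested, and the level of Hadhb is uncertain because of the pseudogenes named above. Hadhb averaged 36.3 CPM per kb in Srebp2cKO and 32.8 in Srebp2WT, and Hadha 31.0 in Srebp2cKO and 32.3 in Srebp2WT, with overlapping ranges over the 6 libraries. Below them, Acadl, Cpt1a and Acadvl averaged 24.0 to 26.1 CPM per kb in Srebp2cKO and 24.9 to 26.4 in Srebp2WT, and the ranges of these 3 genes overlapped. Acaa2 averaged 19.7 CPM per kb in Srebp2cKO and 19.1 in Srebp2WT, and its range overlapped those of Cpt1a and Acadvl but not that of Acadl. Slc25a20, Acadm and Etfdh averaged 16.4, 14.3 and 12.8 CPM per kb in Srebp2cKO and 14.8, 12.5 and 11.0 in Srebp2WT, with Slc25a20 overlapping Acadm and Acadm overlapping Etfdh. Cpt2 stood apart at 3.80 CPM per kb in Srebp2cKO and 4.23 in Srebp2WT, with no library of it reaching any library of Etfdh. The order of the means was the same in both genotypes except that Acadl and Cpt1a changed places.

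**Figure D3:**
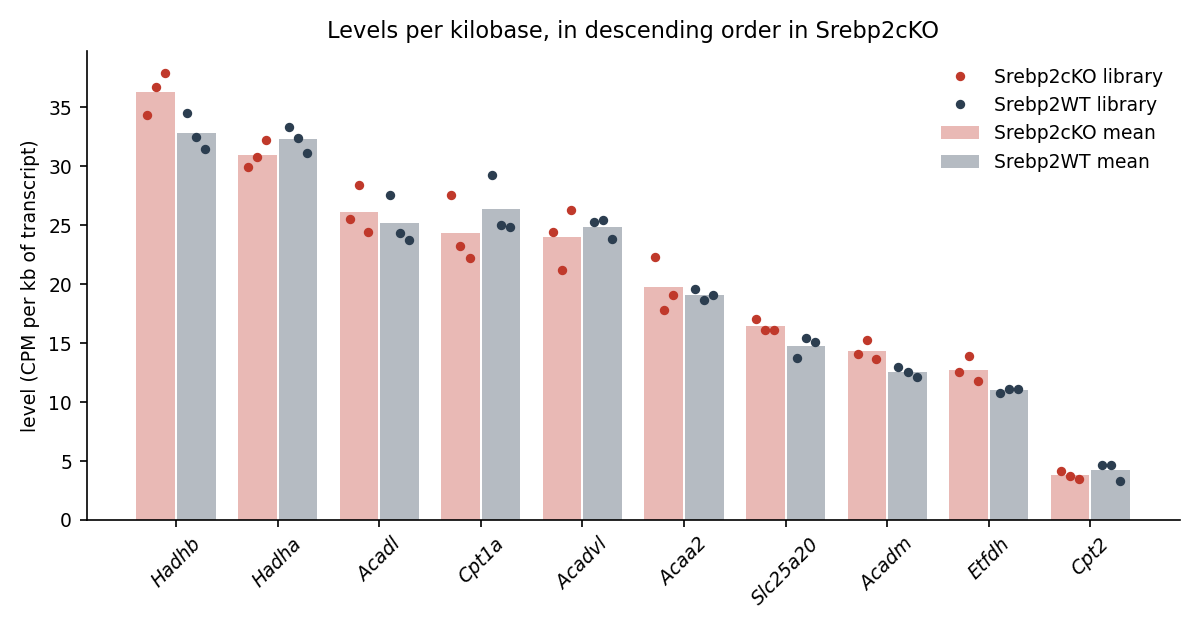
Level per kilobase of the longest annotated protein-coding transcript (CPM per kb) for the 10 genes, ordered by their mean in Srebp2cKO. Bars are means, points are libraries, Srebp2cKO in red on the left and Srebp2WT in dark blue on the right. Hadhb is highest at 36.3 and Cpt2 lowest at 3.80 CPM per kb in Srebp2cKO.

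A ratio of 2 genes within a library does not depend on the scaling of libraries. The ratio of Hadha to Hadhb counts was 1.71, 1.65 and 1.67 in Srebp2cKO and 1.89, 1.96 and 1.94 in Srebp2WT. It averaged 1.67 ± 0.0313 in Srebp2cKO and 1.93 ± 0.0346 in Srebp2WT and did not overlap (exact two-sided permutation p = 0.1, the smallest that 3 against 3 allows). Ratios of 33.3% of all pairs of tested genes with a mean count of at least 100 were separated in this way. Of the 45 pairs among the 10 genes, 10 were separated. With the GC trend removed, the ratio of Hadha to Hadhb was 1.69, 1.83 and 1.76 in Srebp2cKO and 1.78, 1.81 and 1.92 in Srebp2WT, and the genotypes overlapped (exact permutation p = 0.3).

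The ratio of Acadm to Acadl counts was 0.590, 0.573 and 0.597 in Srebp2cKO and 0.504, 0.549 and 0.545 in Srebp2WT. It was separated both as counted and with the GC trend removed, when it averaged 0.601 ± 0.0113 in Srebp2cKO and 0.520 ± 0.0282 in Srebp2WT (exact permutation p = 0.1 for each). As counted, 33.3% of all pairs compared were separated, and the share with the GC trend removed was not computed. The ratio of Cpt1a to Cpt2 averaged 11.7 ± 0.421 in Srebp2cKO and 11.6 ± 2.07 in Srebp2WT, and that of Acadvl to Acadl 1.05 ± 0.188 in Srebp2cKO and 1.12 ± 0.0737 in Srebp2WT. Both of these overlapped between the genotypes (exact permutation p = 0.9 and 0.7). Adjusted over these 4 ratios, the smallest p was 0.2.

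**Figure D4:**
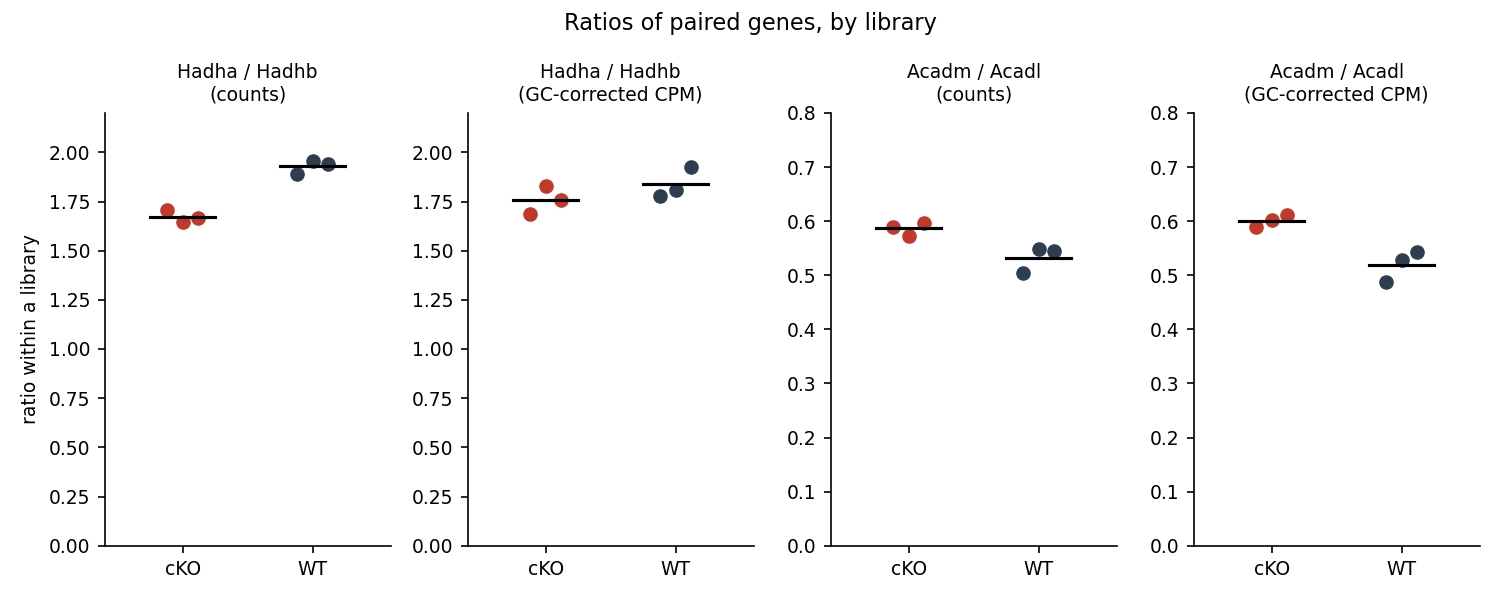
Ratio of Hadha to Hadhb and of Acadm to Acadl in each library (linear axes from 0), from counts and from GC-corrected CPM; Srebp2cKO in red on the left, Srebp2WT in dark blue on the right, with the mean as a line. The Hadha to Hadhb ratios are separated from counts (1.65 to 1.71 in Srebp2cKO, 1.89 to 1.96 in Srebp2WT) and overlap after the correction.

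The genes around the pathway were counted in 7 related lists of 94 genes, of which 74 were tested. Of these, 1 was higher and 2 were lower, 4.05% of the 74 against 6.61% of all tested genes. Acaca, acetyl-CoA carboxylase 1, which makes malonyl-CoA for fatty acid synthesis, lies on chromosome 11 from 84129672 to 84401651. It fell to 35.8, 24.8 and 35.1 CPM in Srebp2cKO, against 52.1, 46.3 and 48.9 CPM in Srebp2WT (log2 fold change -0.62, SE 0.13, edgeR adjusted p = 0.0250). Of 20 refits, 16 kept the call. Those that lost it included the fits without Srebp2WT replicate 1 (edgeR adjusted p = 0.107) or 3 (0.0721). With the GC trend removed and all 6 libraries kept, Acaca still passed (-0.65, edgeR adjusted p = 0.0170). Acacb, the form at the mitochondrial surface, was low, at 1.41 ± 0.500 CPM in Srebp2cKO and 2.06 ± 0.777 CPM in Srebp2WT, and did not pass (edgeR adjusted p = 0.349). Mlycd, which removes malonyl-CoA, did not pass either (log2 fold change -0.23, edgeR adjusted p = 0.289). Acacb and Mlycd were chosen after their values were seen.

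Slc27a1, the fatty acid transport protein FATP1, lies on chromosome 8 from 71568882 to 71587302. It fell to 6.17, 4.52 and 5.01 CPM in Srebp2cKO, against 9.46, 9.34 and 8.39 CPM in Srebp2WT. Its log2 fold change was -0.80 (SE 0.17, edgeR adjusted p = 0.0260) on 70 to 151 counts a library. The call was lost with the GC trend removed (-0.56, adjusted p = 0.0513). It was also lost without Srebp2cKO replicate 7 (adjusted p = 0.0745) or 8 (0.0710) and without Srebp2WT replicate 1 (0.107) or 3 (0.108). It was the 1 gene of 11 tested for uptake, binding and activation to pass. The most abundant of them, the acyl-CoA synthetases Acsl5 and Acsl4, which charge fatty acids with coenzyme A, had log2 fold changes of -0.02 and 0.21 (edgeR adjusted p = 0.872 and 0.159). Acsl3 had -0.62 (edgeR adjusted p = 0.0622). These Acsl genes were chosen after their values were seen.

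Prkaa1, a catalytic subunit of AMPK, the kinase that switches off acetyl-CoA carboxylase when energy is short, lies on chromosome 15 from 5143861 to 5181899. It rose to 90.3, 119 and 105 CPM in Srebp2cKO, against 71.1, 81.4 and 83.5 CPM in Srebp2WT (log2 fold change 0.41, SE 0.11, edgeR adjusted p = 0.0488). Its transcript has 40.2% GC, and with the GC trend removed the log2 fold change was 0.17 (adjusted p = 0.207). The call was also lost with RLE scaling (adjusted p = 0.0515), total-count scaling (0.0624) and limma-voom (0.0509), and without any 1 library except Srebp2cKO replicate 6 (adjusted p = 0.0546 to 0.200).

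In the edgeR fit to all 6 libraries, no gene passed in the other 5 lists, although some of those named here passed under another setting. Of the 20 other genes of mitochondrial beta-oxidation, 0 passed (3 at an unadjusted p under 0.05, median log2 fold change -0.01). Acads, the short-chain dehydrogenase, had the smallest p of these, at 17.5, 12.1 and 17.4 CPM in Srebp2cKO and 26.3, 23.3 and 18.1 CPM in Srebp2WT. Its log2 fold change was -0.53 (SE 0.17, edgeR adjusted p = 0.0861), or -0.27 with the GC trend removed (adjusted p = 0.258), and its transcript has 60.1% GC. It passed as lower with DESeq2 (adjusted p = 0.0390), and with edgeR without the filter on low counts (0.0469) or without Srebp2WT replicate 5 (0.0380). Acat1, the thiolase that splits acetoacetyl-CoA, had a log2 fold change of 0.18 (edgeR adjusted p = 0.164), or 0.07 with the GC trend removed. Echs1 and Hadh, the short-chain hydratase and hydroxyacyl-CoA dehydrogenase, were chosen after their values were seen and had log2 fold changes of -0.01 and -0.0021.

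Of 14 tested genes of peroxisomal oxidation, which shortens very long chains before they reach mitochondria, 0 passed (4 at an unadjusted p under 0.05, median 0.04). Hsd17b4 (0.25) and Ehhadh (0.35), both bifunctional enzymes, and Decr2, a dienoyl-CoA reductase (-0.34), had the smallest p (edgeR adjusted p = 0.0980, 0.133 and 0.0958). Of 8 genes of fatty acid release, 0 passed (2 at an unadjusted p under 0.05, median -0.02). Lipa, the lysosomal acid lipase, had a log2 fold change of 0.24, Pnpla2, the lipase of lipid droplets, -0.33, and the droplet coat gene Plin2 -0.30 (edgeR adjusted p = 0.101, 0.107 and 0.408). With the GC trend removed, Lipa was at 0.13 and Pnpla2 at -0.15, and Pnpla2 passed without Srebp2cKO replicate 6 (-0.43, edgeR adjusted p = 0.0427). Plin2 was at -0.61 without Srebp2cKO replicate 7 and -0.13 without Srebp2cKO replicate 8.

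Of 10 PPAR and PGC-1 regulators, 0 passed (3 at an unadjusted p under 0.05, median -0.13). Ppara, the receptor that drives these genes in liver, had at most 2 counts in a library, and Ppargc1a at most 8, and neither was tested. Both were chosen after their values were seen. Sirt1, a deacetylase, had a log2 fold change of 0.42 (edgeR adjusted p = 0.0628), Rxra, a partner of PPAR receptors, -0.36 (0.0935) and Sirt3, a mitochondrial deacetylase, -0.66 (0.157). Sirt1 passed as higher with DESeq2 (adjusted p = 0.0205), and with edgeR without the filter on low counts (0.0356), without Srebp2cKO replicate 6 (0.0288) or without Srebp2WT replicate 5 (0.0438). With the GC trend removed, Sirt1 was at 0.27 (adjusted p = 0.106) and Rxra at -0.19 (0.401). Rxra passed as lower without Srebp2cKO replicate 8 (-0.51, edgeR adjusted p = 0.0437). Of the PPAR-responsive genes outside the pathway, 2 of 8 were tested and 0 passed (1 at an unadjusted p under 0.05). Ucp2, a mitochondrial carrier, had a log2 fold change of -0.29 (edgeR adjusted p = 0.0849) and passed as lower with DESeq2 (0.0341) and without Srebp2cKO replicate 6 (-0.39, edgeR adjusted p = 0.0262). With the GC trend removed it was at -0.17 (adjusted p = 0.173). Angptl4, a secreted lipase inhibitor, had 0.03 (edgeR adjusted p = 0.959), and -0.14 to 0.33 when 1 library was left out. In all, DESeq2 called 7 related genes, where it called 12.2% of the 11467 genes it gave an adjusted p. Of the 74 related genes tested with edgeR, at least Cpt1c had no adjusted p from DESeq2. The limma-voom fit called 2 of the 74, where it called 6.55% of all tested genes. At an unadjusted p under 0.05 edgeR had 22 of the 74, against 29.1% of all tested genes.

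**Figure D5:**
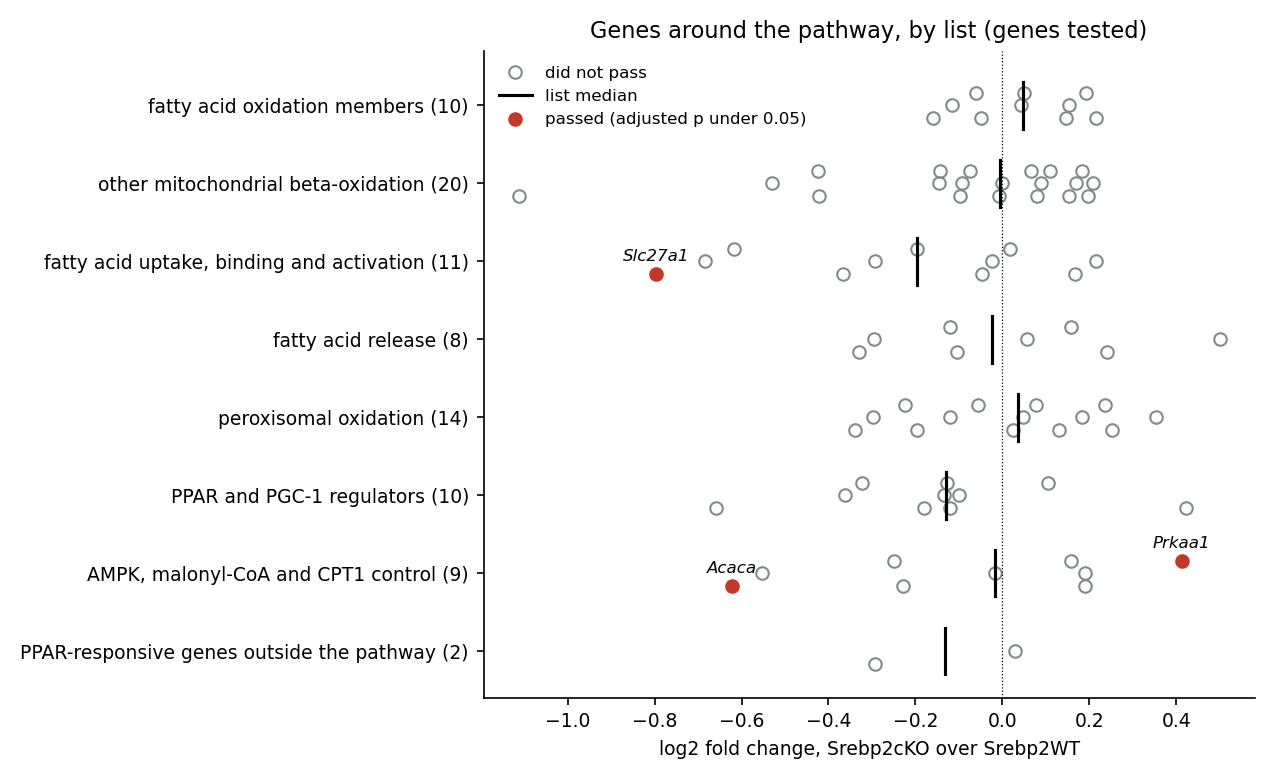
Log2 fold change of Srebp2cKO over Srebp2WT for each tested gene of the 10 and of the 7 related lists (number tested in parentheses); filled red circles passed at an adjusted p under 0.05, open circles did not, and the black line is the list median. Slc27a1, Acaca and Prkaa1 are the 3 filled circles, and the 10 fatty acid oxidation genes lie between -0.16 and 0.21.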

How the data were processed

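Gene counts of 6 Treg libraries were used as the authors deposited them: whole, unnormalized counts per gene symbol. RNA was depleted of ribosomal RNA and made into libraries with a KAPA kit, per the labels' protocols. HISAT2 2.2.1, mm10 and Cell Ranger are named, with no role, per the submitters' processing notes. No source used here names the counter, annotation or strand setting. Libraries held 13918321 to 17249898 counts, 8113 genes were at 0 and 0 rows named no gene. Within a genotype, pairs of libraries had chi-square values of 6.71 to 34.8 per degree of freedom, more than counting noise gives.

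Genes kept by filterByExpr were tested with edgeR 4.0.16 (R 4.3.3, TMM scaling, quasi-likelihood F test of Srebp2cKO against Srebp2WT, no covariate), with Benjamini-Hochberg adjustment over all 11932 genes and a threshold of 0.05. CPM are TMM-scaled. DESeq2 1.42.0, limma 3.58.1 (voom), other scalings and filters, a loess correction for transcript GC (span 0.3) and leaving out each library were alternatives. The fit was tested on simulated data. Transcript length and GC were those of the longest protein-coding transcript of each gene in GENCODE M21 (GRCm38), which matched 23376 of 24421 symbols. Where a gene had no protein-coding transcript, the longest of any type was used. Promoters came from RefSeq (GRCm38.p6). The 10 genes and the related lists were chosen with earlier results of these data known. The text names all 10, and from each related list the genes called or otherwise up to 3 with the smallest p, plus Cpt1b and Cpt1c. Others are said to be chosen after their values were seen.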

Additional observations from a re-analysis of the deposited data

How the results depend on the processing

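None of the 10 fatty acid oxidation genes was called in any of the 21 alternatives run. The smallest adjusted p was 0.147, for Cpt1a without Srebp2cKO replicate 6, where Cpt1a alone had an unadjusted p under 0.05. The log2 fold change of Acadvl and of Acadl took the opposite sign in 7 of 20 refits each, that of Hadhb in 2 and that of Acaa2 in 1, and that of the other 6 genes in 0. Over all genes, 789 were called (283 higher, 506 lower), and 3 of the related genes. DESeq2 called 1404 (626 higher, 778 lower, 7 related), no filter on low counts 1205 (473 higher, 6 related), and a threshold of 0.1 called 1893 (861 higher, 1032 lower, 10 related). Total-count scaling gave 184 higher. Leaving out 1 library gave 167 to 1487 calls (29 to 700 higher, 135 to 787 lower, 0 to 7 related). The lowest counts were 167 without Srebp2WT replicate 1 and 184 without Srebp2WT replicate 3, followed by 298 without Srebp2cKO replicate 7 and 439 without Srebp2cKO replicate 8, and the highest was 1487 without Srebp2cKO replicate 6. With the GC correction, which alone gave 683 calls, the same omissions gave 277 to 777 calls (59 to 249 higher, 212 to 528 lower, 0 to 2 related). Under that correction there were 413 calls without Srebp2cKO replicate 6 (140 higher, 273 lower) and 330 without replicate 7 (87 higher, 243 lower), and 144 were higher without replicate 8. There were 282 without Srebp2WT replicate 1 (70 higher), and 218 were lower without replicate 3. The cause was not tested. No paired analysis was possible because the genotypes share no replicate number. With 115 to 178 counts a library, Cpt2 is the least precise of the 10.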
